A study of Homo sapiens with 6 samples.

Results

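The 8 genes described here encode receptors for the constant (Fc) part of antibodies, the signal adaptors that pair with such receptors, and the kinases that act first behind them. They are the Fc gamma receptors FCGR1A and FCGR2A, the adaptors FCER1G and TYROBP, and the kinases SYK, LYN, FGR and BTK. They were taken from the deposited table by gene name for their known roles in myeloid cells, and each had 1 row among the 24878 genes of the table. The choice was made with earlier results of these data known. All 8 passed the filter on low counts and were among the 14601 genes tested. The RNA came from MOLM-13, a human acute myeloid leukaemia cell line that the labels class as AML-M5, the monocytic type. Poly-A RNA was sequenced from cells carrying a vector that knocks out CaMK2D (KO) when doxycycline is added, taken after 3 days of doxycycline (2 libraries) and after 5 days (2 libraries), and from control cells given no doxycycline (2 libraries). The controls therefore differ from the KO-labelled cells in doxycycline and may also differ in vector, which the labels do not settle. The effects of these cannot be told apart. The labels name the controls' genotype as control only, and do not give the guide, the promoter that drives the vector, whether the KO-labelled cells were 1 clone, or whether the 2 libraries in a group stem from different cultures. The p-values thus take in just the variation from library to library, which may be technical.

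Antibody-coated targets cluster Fc receptors on myeloid cells, and kinases of the SRC family, such as LYN and FGR, then phosphorylate paired tyrosines in the ITAM, a short activation motif in the receptor tail or in its adaptor. SYK docks onto the phosphorylated ITAM and passes the signal to BTK, phospholipase C gamma and phosphoinositide 3-kinase, while receptors with an inhibitory motif, the ITIM, recruit phosphatases that oppose it. In acute myeloid leukaemia SYK has been studied as a partner of the receptor kinase FLT3, and the Fc receptors and adaptors are markers of monocytic maturation.

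FCGR2A, FCER1G and SYK fell in KO-labelled cells at both days and FCGR1A fell at day 5, while BTK and FGR overlapped the controls. FCGR2A fell 3.72-fold at day 3 and 3.56-fold at day 5, FCER1G 2.10-fold and 2.22-fold, and SYK 1.64-fold and 1.54-fold. At day 3 those 3 genes passed the threshold (adjusted p under 0.05 over all genes tested, edgeR's quasi-likelihood test), so 3 of the 8 genes were lower and 0 were higher, against 5.99% of all tested genes called lower and 5.72% called higher. At day 5 the same 3 genes and FCGR1A fell, so 4 of the 8 were lower and 0 higher, against 7.05% of all tested genes called lower and 7.44% called higher. Because the 8 genes were chosen with earlier results of these data known, counts set beside the shares of all genes are a description and test no excess. In TYROBP and LYN both libraries of each day also lay below both controls, but the test did not pass at either day. Counted that way, 6 of the 8 genes lay below both controls at day 3 and 6 at day 5, against 30.1% and 28.4% of all tested genes. None had both libraries above both controls at day 3 or at day 5, against 30.3% and 29.6% of all tested genes. The comparisons of day 3 and of day 5 with control share the same 2 control libraries. In bulk RNA, fewer cells of a type and less RNA per cell cannot be told apart.

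The replicate numbers in the labels go with shifts shared by same-numbered libraries, so the number was also fitted as a block. With that block 6 of the 8 genes fell at day 3 and 6 at day 5, TYROBP and LYN included, against 14.2% and 14.5% of all tested genes called lower in the same fit, which called 27.8% of all genes in either direction at day 3 and 30.3% at day 5. Those counts over all genes were 2074 and 2113, against 875 and 1030 without the block. Leaving out control replicate 1, KO day 3 replicate 1 or KO day 3 replicate 2 left 1 of the 8 genes called at day 3. Leaving out control replicate 1 left 2 called at day 5, leaving out KO day 5 replicate 1 left 1, and leaving out KO day 5 replicate 2 left 2.

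**Figure D1:**
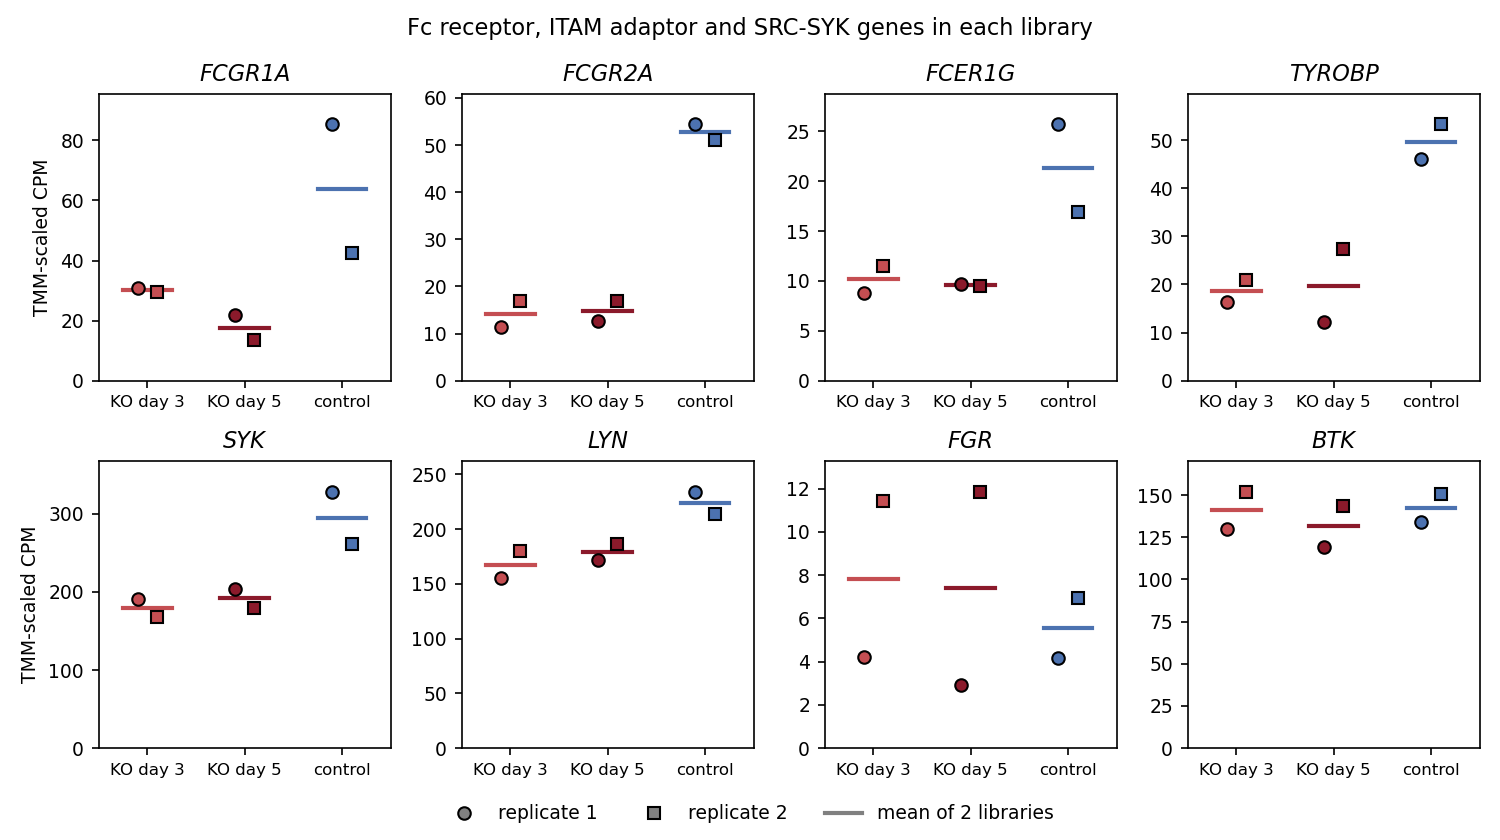
TMM-scaled CPM (counts scaled to library size, vertical axes starting at 0) of the 8 genes in each of the 6 libraries, with replicate 1 as circles, replicate 2 as squares and a bar at the mean of 2 libraries. The KO day 3 and KO day 5 points lie below both control points in 6 panels and overlap them for FGR and BTK.

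Total counts ranged from 15456770 to 21081298 per library, and libraries of a group differed by far more than sampling noise. CAMK2D, the targeted gene, stood at 14.7 and 15.6 CPM at day 3, 28.98 and 28.1 CPM at day 5, and 23.0 and 14.5 CPM in controls. Its log2 fold change was -0.30 (SE 0.23, adjusted p = 0.437 by edgeR) at day 3 and 0.61 (SE 0.23, adjusted p = 0.118 by edgeR) at day 5, so its mRNA level does not mark the knockout. For this reason the libraries are called KO-labelled. Of 12 myeloid identity markers, all in the table, the summed level was 976 to 1182 CPM at day 3 and 999 to 1350 CPM at day 5. In controls it was 2710 to 3504 CPM, most of it MPO and FLT3. MPO averaged 22.1 CPM at day 3, 11.2 CPM at day 5 and 941 CPM in controls, and FLT3 averaged 334, 255 and 969 CPM. CEBPA averaged 317, 459 and 329 CPM, and was the only marker of the 12 with a higher mean at day 5 than in controls. CD68 was at 0 in 5 of the 6 libraries and CD14 at 0.113 to 2.97 CPM. The summed level of the mast cell and basophil markers (5 of 7 in the table, almost all of it MS4A3) was 36.1 to 52.1, 39.0 to 45.1 and 173 to 182 CPM in the same order of groups. That of the lymphoid markers (7 of 13 in the table, most of it NKG7) was 77.9 to 82.4, 71.4 to 78.3 and 119 to 150 CPM. Within the lymphoid list PAX5 averaged 26.8, 21.4 and 26.6 CPM. The erythroid and megakaryocyte list (4 of 11 in the table) summed to at most 6.14 CPM in any library, and the epithelial, stromal and endothelial list (5 of 10 in the table) to 19.0 to 25.2, 21.5 to 30.8 and 17.6 to 34.2 CPM. Mitochondrially encoded genes took 0.868% and 0.929% of counts at day 3, 1.08% and 1.14% at day 5, and 3.05% and 2.52% in controls. The part of these shifts in the results below was not tested.

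FCGR1A and FCGR2A encode the receptors that bind the Fc part of IgG on monocytes. FCGR1A is the high-affinity receptor and signals through FCER1G, while FCGR2A is a low-affinity receptor that carries an ITAM in its own tail. In GRCh38 with GENCODE release 29, FCGR1A (ENSG00000150337) lies at chr1:149782671-149792518 and FCGR2A (ENSG00000143226) at chr1:161505430-161524013, both on the plus strand and protein-coding. Their RefSeq promoter windows (GRCh38.p14, plus strand, chr1:149782444-149782743 and chr1:161505207-161505506), from 250 bases before to 50 bases after the start, are shown because these receptors had the largest log2 fold changes of the 8 genes at day 5 and because the windows share a run of 20 bases. Capitals mark that shared run in both, a TTCNNNGAA match in FCGR1A and a TATAAA match in FCGR2A.
FCGR1A: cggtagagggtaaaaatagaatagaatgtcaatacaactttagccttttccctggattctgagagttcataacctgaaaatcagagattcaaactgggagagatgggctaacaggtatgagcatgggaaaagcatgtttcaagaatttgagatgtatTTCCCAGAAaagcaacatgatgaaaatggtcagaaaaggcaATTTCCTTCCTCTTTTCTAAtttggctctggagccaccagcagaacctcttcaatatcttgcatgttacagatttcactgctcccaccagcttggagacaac
FCGR2A: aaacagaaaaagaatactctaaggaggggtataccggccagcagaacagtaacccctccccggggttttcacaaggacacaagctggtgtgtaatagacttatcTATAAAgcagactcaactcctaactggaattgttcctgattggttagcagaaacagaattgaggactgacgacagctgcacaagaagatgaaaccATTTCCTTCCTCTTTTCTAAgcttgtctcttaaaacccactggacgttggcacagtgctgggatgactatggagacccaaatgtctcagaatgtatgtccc
The shared run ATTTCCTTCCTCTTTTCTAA lies at -52 to -33 from the FCGR1A start and at -51 to -32 from the FCGR2A start. Among 35116 RefSeq windows, each read in the direction of its gene, it was found for these 2 genes only, and the next-longest run shared between the 7 windows matched among the 8 genes was 11 bases; the run was found by looking at these sequences and carries no test. TTCNNNGAA, the letters of the interferon gamma activation site read by STAT dimers, lies at -93 to -85 in FCGR1A, and 7.66% of all windows hold it on either strand. TATAAA lies at -146 to -141 in FCGR2A, and 11.5% of all windows hold it on either strand. The GC content was 40.7% for FCGR1A and 45% for FCGR2A, against a median of 58.7% over all windows.

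FCGR2A stood at 11.5 and 16.9 CPM at day 3, at 12.7 and 16.9 CPM at day 5, and at 54.4 and 51.2 CPM in controls. All 4 KO-labelled libraries lay far below both controls, and the days overlapped. FCGR2A fell 3.72-fold at day 3 (log2 fold change -1.90, SE 0.23, adjusted p = 0.00366 by edgeR) and 3.56-fold at day 5 (-1.83, SE 0.23, adjusted p = 0.00362 by edgeR). Of the 8 genes it alone passed the threshold at both days under each of the 16 alternatives tried, with adjusted p up to 0.0449 at day 3 and 0.0393 at day 5.

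FCGR1A stood at 30.96 and 29.7 CPM at day 3, at 21.8 and 13.6 CPM at day 5, and at 85.4 and 42.4 CPM in controls. Each KO-labelled library lay below both controls, and both day 5 libraries lay below both day 3 libraries, while control replicate 1 was high above control replicate 2. FCGR1A fell 3.61-fold at day 5 (log2 fold change -1.85, SE 0.37, adjusted p = 0.0238 by edgeR). At day 3 its log2 fold change was -1.07 (SE 0.36, adjusted p = 0.106 by edgeR), which did not pass, and it was -0.99 (adjusted p = 0.00163 by edgeR) with the replicate block. Without control replicate 2 the day 3 value passed, at -1.48 (adjusted p = 0.0129 by edgeR), and without control replicate 1 it was -0.48. The day 5 call was lost without KO day 5 replicate 1 (adjusted p = 0.0507 by edgeR) or replicate 2 (adjusted p = 0.108 by edgeR). Day 5 against day 3 gave -0.78 (SE 0.36, adjusted p = 0.373 by edgeR) without the block and -0.83 (adjusted p = 0.0236 by edgeR) with it, against 3.21% of all tested genes called lower and 4.44% called higher between the days in that fit, 7.65% in all.

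Some reads of both receptors cannot be assigned with certainty. Of the 100-base stretches in FCGR1A exons, 36.5% also occur in FCGR1B or FCGR1CP, and 6.74% of those in FCGR2A occur in FCGR2C, FCGR2B or AL590385.2, while the other 6 genes share none. On the opposite strand, the antisense gene AC243772.2 covers 18.7% of the FCGR1A exon bases and HIST2H2BF covers 5.9%, and the library kit is not stated to keep strand.

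Of the other Fc receptors, FCGR2B and FCGR2C fell at day 3, FCGRT fell at both days and FCMR fell at day 5. FCGR2B, the inhibitory Fc gamma receptor, stood at 1.56 and 4.01 CPM at day 3, 3.00 and 5.41 CPM at day 5, and 10.0 and 11.5 CPM in controls. FCGR2C, a near-copy of FCGR2B with an activating tail, stood at 0.261 and 1.54, 1.81 and 3.33, and 7.39 and 11.5 CPM in the same order of groups. Its 0.261 CPM in KO day 3 replicate 1 is near the 0.154 CPM that a count of 3 equals in that library. How much sequence FCGR2B and FCGR2C share with each other was not measured. In both genes every KO-labelled library lay below both controls. At day 3 FCGR2B fell by 1.95 on the log2 scale (SE 0.49, adjusted p = 0.0412 by edgeR) and FCGR2C by 3.39 (SE 0.74, adjusted p = 0.0295 by edgeR). At day 5 their log2 fold changes were -1.35 (adjusted p = 0.0989 by edgeR) and -1.87 (adjusted p = 0.11 by edgeR), and with the replicate block both passed, at adjusted p of 0.00277 and 0.00135. FCGRT, the neonatal Fc receptor that protects IgG from breakdown, stood at 50.9 and 51.0 CPM at day 3, 48.4 and 55.7 CPM at day 5, and 88.7 and 122 CPM in controls. FCGRT fell by 1.05 (SE 0.17, adjusted p = 0.0106 by edgeR) and 1.02 (SE 0.17, adjusted p = 0.00982 by edgeR) on the log2 scale. FCGR1B, a near-copy of FCGR1A, had log2 fold changes of -1.44 (adjusted p = 0.139 by edgeR) at day 3 and -1.54 (adjusted p = 0.112 by edgeR) at day 5, which passed with the replicate block at adjusted p of 0.00864 and 0.00611. FCMR, a receptor for IgM, stood at 0.679 and 1.09 CPM at day 5 and at 6.04 and 4.27 CPM in controls, and fell by 2.53 on the log2 scale (SE 0.59, adjusted p = 0.0284 by edgeR). At day 3 its value was -1.76 (adjusted p = 0.0838 by edgeR), and with the replicate block it was -1.86 (adjusted p = 0.0129 by edgeR). FCRLA, an intracellular Fc receptor-like protein of B cells, went the other way with the block and was named after its values were seen. It stood at 5.21 and 13.0 CPM at day 3, 6.68 and 11.6 CPM at day 5, and 0.964 and 6.04 CPM in controls, and was higher in that fit by 1.51 (adjusted p = 0.00556 by edgeR) and 1.62 (adjusted p = 0.00334 by edgeR) on the log2 scale, but not called without the block (1.35, adjusted p = 0.359, and 1.36, adjusted p = 0.346). Leaving out 1 library ended several of these calls. Without KO day 3 replicate 1 the day 3 value was -1.41 for FCGR2B and -2.60 for FCGR2C, and without KO day 3 replicate 2 it was -2.76 and -5.12. Without control replicate 1, control replicate 2 or KO day 3 replicate 1, the adjusted p at day 3 was 0.0886, 0.0894 and 0.167 for FCGR2B and 0.0634, 0.0755 and 0.0697 for FCGR2C. For FCGRT it was 0.072 and 0.07 without KO day 3 replicate 1 or 2, and 0.0534 at day 5 without KO day 5 replicate 1. For FCMR it was 0.0972, 0.105 and 0.0733 at day 5 without control replicate 1, KO day 5 replicate 1 or KO day 5 replicate 2. FCGR2C passed at day 5 without KO day 3 replicate 1 (adjusted p = 0.034 by edgeR) or replicate 2 (adjusted p = 0.0344 by edgeR).

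FCER1G and TYROBP encode small membrane adaptors that lend their ITAM to receptors with no signalling tail. FCER1G, the common Fc receptor gamma chain, serves FCGR1A and the IgA and IgE receptors, and TYROBP, also called DAP12, serves receptors of the TREM, SIRP and CLEC families. FCER1G (ENSG00000158869) lies at chr1:161215234-161220699 on the plus strand, and TYROBP (ENSG00000011600) at chr19:35904401-35908295 on the minus strand, both protein-coding.

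FCER1G stood at 8.81 and 11.5 CPM at day 3, at 9.68 and 9.50 CPM at day 5, and at 25.7 and 16.9 CPM in controls. Its KO-labelled libraries lay close together and below both controls, which were uneven. FCER1G fell 2.10-fold at day 3 (log2 fold change -1.07, SE 0.26, adjusted p = 0.0382 by edgeR) and 2.22-fold at day 5 (-1.15, SE 0.27, adjusted p = 0.0271 by edgeR). Of the 16 alternatives 11 called it at day 3 and 12 at day 5. The day 3 call was lost when only the 4 libraries compared were fitted (adjusted p = 0.053 by edgeR). Both calls were lost on unfiltered FPKM (adjusted p = 0.106 and 0.089 by limma). Without control replicate 1 the adjusted p was 0.187 at day 3 and 0.116 at day 5, and the call was also lost without KO day 3 replicate 1 (0.221) or replicate 2 (0.111) and without KO day 5 replicate 1 (0.0882) or replicate 2 (0.108), all by edgeR.

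TYROBP stood at 16.3 and 20.9 CPM at day 3, at 12.2 and 27.3 CPM at day 5, and at 46.1 and 53.3 CPM in controls. All 4 KO-labelled libraries lay below both controls, and replicate 2 exceeded replicate 1 in each group. Its log2 fold change was -1.42 (SE 0.36, adjusted p = 0.0506 by edgeR) at day 3 and -1.33 (SE 0.36, adjusted p = 0.0535 by edgeR) at day 5, each just over the threshold. With the replicate block TYROBP fell by 1.43 (adjusted p = 0.000125 by edgeR) and 1.41 (adjusted p = 0.000124 by edgeR) on the log2 scale. Of the 16 alternatives 9 called it lower at day 3 and 4 at day 5. Those included leaving out KO day 5 replicate 1 or 2, which gave adjusted p of 0.00683 and 0.0074 at day 3, and leaving out KO day 5 replicate 2, which gave 0.0103 at day 5. The day 5 log2 fold change was -2.03 without KO day 5 replicate 2 and -0.88 without KO day 5 replicate 1. HCST, the related adaptor DAP10, was near the detection limit at 0.261 to 1.47 CPM over the 6 libraries and was not called.

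AGGAAGT, a form of the site bound by PU.1, a myeloid ETS transcription factor, was searched on both strands of the promoter windows. Other forms of that site were not searched, so a window without these letters may still hold such a site. AGGAAGT was found, on the reverse strand, in 2 of the 7 windows matched among the 8 genes, those of TYROBP and BTK. Of all windows, 8.24% hold AGGAAGT. These windows are shown because the adaptor was among the genes that lay below both controls and the kinase was not. Both lie on the minus strand (RefSeq, GRCh38.p14, chr19:35908246-35908545 for TYROBP and chrX:101390747-101391046 for BTK), and capitals mark the reverse complement of the searched letters.
TYROBP: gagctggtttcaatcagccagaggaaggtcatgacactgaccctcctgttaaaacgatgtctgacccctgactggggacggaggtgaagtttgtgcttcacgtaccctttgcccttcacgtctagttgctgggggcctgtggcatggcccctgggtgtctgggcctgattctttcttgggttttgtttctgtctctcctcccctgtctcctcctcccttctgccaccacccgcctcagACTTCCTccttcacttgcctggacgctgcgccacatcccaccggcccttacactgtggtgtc
BTK: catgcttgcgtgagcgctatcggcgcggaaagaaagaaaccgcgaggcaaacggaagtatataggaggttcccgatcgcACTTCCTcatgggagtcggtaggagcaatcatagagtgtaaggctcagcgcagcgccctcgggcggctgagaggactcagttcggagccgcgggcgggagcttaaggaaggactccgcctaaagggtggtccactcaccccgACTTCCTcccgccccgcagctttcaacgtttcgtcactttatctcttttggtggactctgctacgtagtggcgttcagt
The match lies at -12 to -6 from the TYROBP start, and the BTK window holds 2 matches, at -171 to -165 and at -29 to -23. In the FCER1G, SYK and FGR windows none of the 3 motifs was found, which says only that these letters are not in these windows. SPI1, which encodes PU.1, stood at 182 and 211 CPM at day 3, 191 and 233 CPM at day 5, and 281 and 351 CPM in controls.

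SYK is the kinase that docks onto phosphorylated ITAMs. SYK (ENSG00000165025) lies at chr9:90801787-90898549 on the plus strand. It stood at 192 and 167 CPM at day 3, at 204 and 179 CPM at day 5, and at 328 and 261 CPM in controls. All 4 KO-labelled libraries lay below both controls, and replicate 1 exceeded replicate 2 in each group. SYK fell 1.64-fold at day 3 (log2 fold change -0.72, SE 0.15, adjusted p = 0.0236 by edgeR) and 1.54-fold at day 5 (-0.62, SE 0.15, adjusted p = 0.0316 by edgeR). Of the 16 alternatives 12 called it at day 3 and 8 at day 5, and both calls were lost on unfiltered FPKM (adjusted p = 0.104 and 0.139 by limma). The call at day 3 was lost without control replicate 1 (adjusted p = 0.0613 by edgeR), KO day 3 replicate 1 (0.0973) or KO day 3 replicate 2 (0.186). At day 5 it was lost without control replicate 1 (adjusted p = 0.0862 by edgeR), KO day 3 replicate 1 (0.0511), KO day 5 replicate 1 (0.0708) or KO day 5 replicate 2 (0.157), when only the 4 libraries compared were fitted (0.0568), and with limma on FPKM (0.063 and 0.0652).

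LYN and FGR are SRC family kinases that phosphorylate the ITAM, and LYN also phosphorylates the ITIM of inhibitory receptors. LYN (ENSG00000254087) lies at chr8:55879813-56014168 on the plus strand. It stood at 155 and 180 CPM at day 3, at 172 and 186 CPM at day 5, and at 234 and 214 CPM in controls. All 4 KO-labelled libraries lay below both controls, by a smaller margin than for SYK. Its log2 fold change was -0.42 (SE 0.13, adjusted p = 0.0737 by edgeR) at day 3 and -0.32 (SE 0.13, adjusted p = 0.129 by edgeR) at day 5. With the replicate block LYN passed at both days, at -0.42 (adjusted p = 0.0125 by edgeR) and -0.33 (adjusted p = 0.0443 by edgeR).

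FGR (ENSG00000000938, chr1:27612064-27635277, minus strand) had the lowest group means of the 8 genes. It stood at 4.22 and 11.4 CPM at day 3, at 2.94 and 11.9 CPM at day 5, and at 4.18 and 6.95 CPM in controls. Replicate 2 exceeded replicate 1 in each group, and the groups overlapped. The log2 fold changes of FGR were 0.49 (SE 0.74, adjusted p = 0.719 by edgeR) and 0.41 (SE 0.74, adjusted p = 0.761 by edgeR), so a change of either sign was within the spread between libraries. Within replicate 1 the log2 ratio to control was 0.02 at day 3 and -0.50 at day 5, and within replicate 2 it was 0.72 and 0.77.

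BTK, the TEC family kinase that activates phospholipase C gamma behind SYK, is on the X chromosome (ENSG00000010671, chrX:101349447-101390796, minus strand). It stood at 130 and 152 CPM at day 3, at 119 and 144 CPM at day 5, and at 134 and 151 CPM in controls. The 3 groups overlapped. The log2 fold changes of BTK were -0.01 (SE 0.15, adjusted p = 0.966 by edgeR) and -0.11 (SE 0.15, adjusted p = 0.645 by edgeR).

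**Figure D2:**
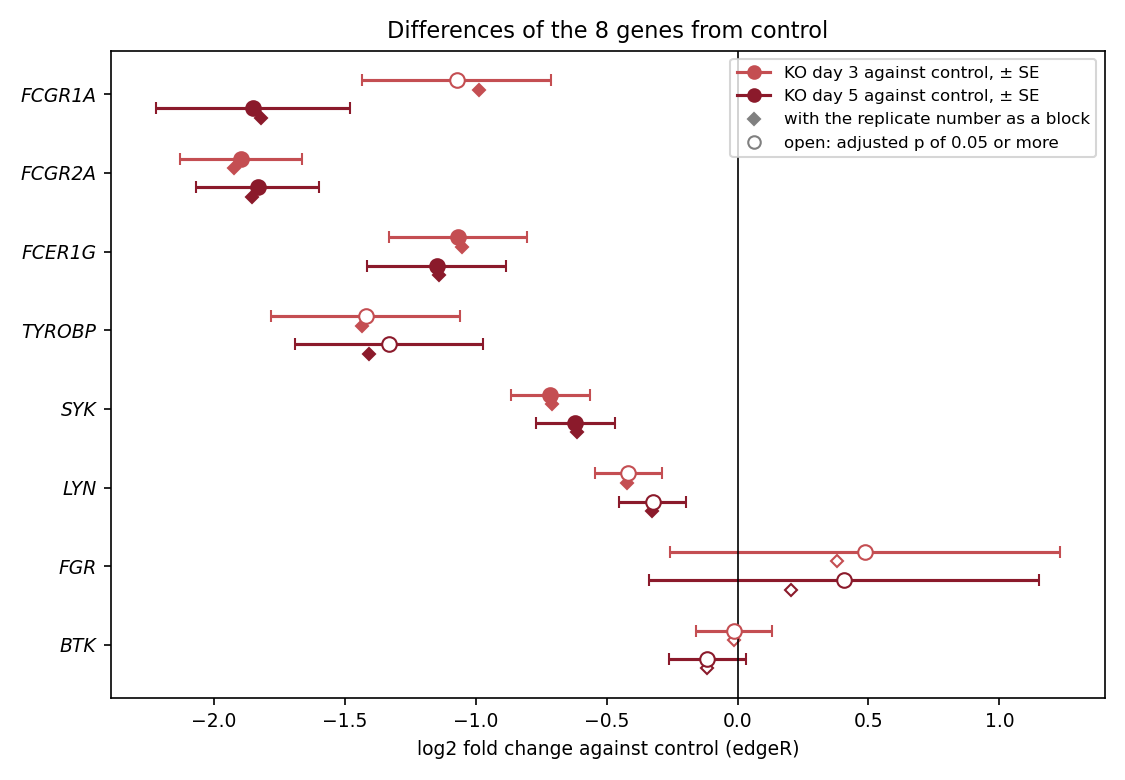
Log2 fold changes of the 8 genes against control from edgeR (circles, bars of 1 SE) at KO day 3 and KO day 5, with the estimate under the replicate block as a diamond. Filled symbols have an adjusted p under 0.05, and the symbols of BTK and FGR are open. Among the circles FCGR2A lies farthest from 0 at day 3, at -1.90. At day 5 FCGR1A does, at -1.85, next to FCGR2A at -1.83.

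Between the days, 0 of the 8 genes passed the threshold and 0 had an unadjusted p under 0.05, against 0.0274% of all tested genes called in either direction. Over all genes 4 were called by edgeR, 435 by DESeq2 and 2206 had an unadjusted p under 0.05. Apart from FCGR1A, the log2 fold changes of day 5 against day 3 lay between -0.10 for BTK and 0.10 for SYK, with SE of 0.13 for LYN to 0.74 for FGR. In FCGR1A both day 5 libraries lay below both day 3 libraries, against 23.8% of all tested genes, and none of the 8 genes had both above both, against 25.5%. Its log2 ratio of day 5 to day 3 was -0.51 within replicate 1 and -1.13 within replicate 2. TYROBP had ratios of opposite sign, -0.42 within replicate 1 and 0.39 within replicate 2.

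Within each numbered pair, the 6 genes that lay below controls had a negative log2 ratio in both pairs at both days. For FCGR1A the ratio at day 3 was -1.46 in replicate 1 and -0.52 in replicate 2, and for FCER1G it was -1.54 and -0.56. For FCGR2A it was -2.25 and -1.60, and for TYROBP it was -1.50 and -1.35. SYK had -0.78 and -0.64, and LYN had -0.59 and -0.25. In each of these genes the ratio was larger in size within replicate 1.

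Transcripts were ranked per length with the deposited FPKM values (fragments per kilobase of transcript, scaled to sequencing depth). In controls the order was SYK at 56.5 ± 9.82 FPKM, TYROBP at 54.7 ± 4.96, LYN at 36.1 ± 2.76, BTK at 31.0 ± 2.21, FCER1G at 22.1 ± 6.70, FCGR1A at 21.3 ± 10.4, FCGR2A at 9.92 ± 0.557 and FGR at 1.60 ± 0.544 FPKM (SD, n = 2). At day 3 it was SYK at 33.5 ± 3.77 FPKM, BTK at 29.97 ± 2.79, LYN at 26.3 ± 2.37, TYROBP at 19.9 ± 3.17, FCER1G at 10.2 ± 1.74, FCGR1A at 9.85 ± 0.463, FCGR2A at 2.59 ± 0.656 and FGR at 2.18 ± 1.39 FPKM (SD, n = 2). At day 5 it was SYK at 37.7 ± 2.83 FPKM, LYN at 29.7 ± 2.16, BTK at 29.5 ± 4.39, TYROBP at 22.4 ± 12.5, FCER1G at 10.2 ± 0.0319, FCGR1A at 6.04 ± 1.89, FCGR2A at 2.86 ± 0.627 and FGR at 2.20 ± 1.90 FPKM (SD, n = 2). By these means SYK led in each group, and TYROBP ranked above LYN and BTK in controls and below both in the KO-labelled groups. At day 5 the TYROBP and LYN libraries overlapped: TYROBP was at 13.61 and 31.25 FPKM in replicates 1 and 2, and LYN at 28.17 and 31.22. Neighbours whose libraries overlapped were SYK and BTK, BTK and LYN, FCER1G and FCGR1A, and FCGR2A and FGR at day 3. At day 5 they were LYN and BTK, BTK and TYROBP, and FCGR2A and FGR, and in controls SYK and TYROBP, and FCER1G and FCGR1A. The 8 genes summed to 135 ± 7.88 FPKM at day 3, 141 ± 16.9 FPKM at day 5 and 233 ± 22.5 FPKM in controls (SD, n = 2), and the KO-labelled sums lay below both control sums.

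The make-up of the families was described from the same FPKM values. The Fc gamma receptor transcripts summed to 13.5 and 14 FPKM at day 3, 11.6 and 10.3 FPKM at day 5, and 45.3 and 29.6 FPKM in controls, with no overlap between KO-labelled and control libraries. FCGR1A made up 75.1% and 67.8% of them at day 3, 63.4% and 45.7% at day 5, and 63.2% and 47.4% in controls, and FCGR2A most of the rest. FCGR3A, a receptor of natural killer cells and mature monocytes, was at most 0.255% of the sum in any library. The ITAM adaptors summed to 27.1 to 34.9 FPKM at day 3, 24.5 to 44.1 FPKM at day 5 and 77.0 to 78.5 FPKM in controls, with TYROBP at 64.3%, 63.3% and 70.3% of the sum on average.

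SRC, the founding member of the kinase family of LYN and FGR, stood at 4.22 and 3.24 CPM at day 3, 4.70 and 6.77 CPM at day 5, and 15.7 and 17.1 CPM in controls, with no overlap between KO-labelled and control libraries. SRC fell by 2.13 (SE 0.30, adjusted p = 0.00588 by edgeR) and fell by 1.51 (SE 0.29, adjusted p = 0.0144 by edgeR) on the log2 scale at day 3 and day 5. Without KO day 5 replicate 1 the day 5 call of SRC was lost (adjusted p = 0.0641 by edgeR). FYN and YES1 were not called at either day. SYK made up at least 99.8% of SYK and ZAP70 transcripts in each library. In the TEC family BTK held 93.0% and 94.1% at day 3, 93.1% and 95.1% at day 5, and 85.8% and 86.6% in controls. TEC fell by 1.10 (SE 0.29, adjusted p = 0.0463 by edgeR) and 1.68 (SE 0.29, adjusted p = 0.0107 by edgeR). The TEC call at day 3 was lost without any of the 4 libraries compared (adjusted p = 0.0801 by edgeR, 0.144, 0.263 and 0.0963), and at day 5 without KO day 5 replicate 1 (0.0528).

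**Figure D3:**
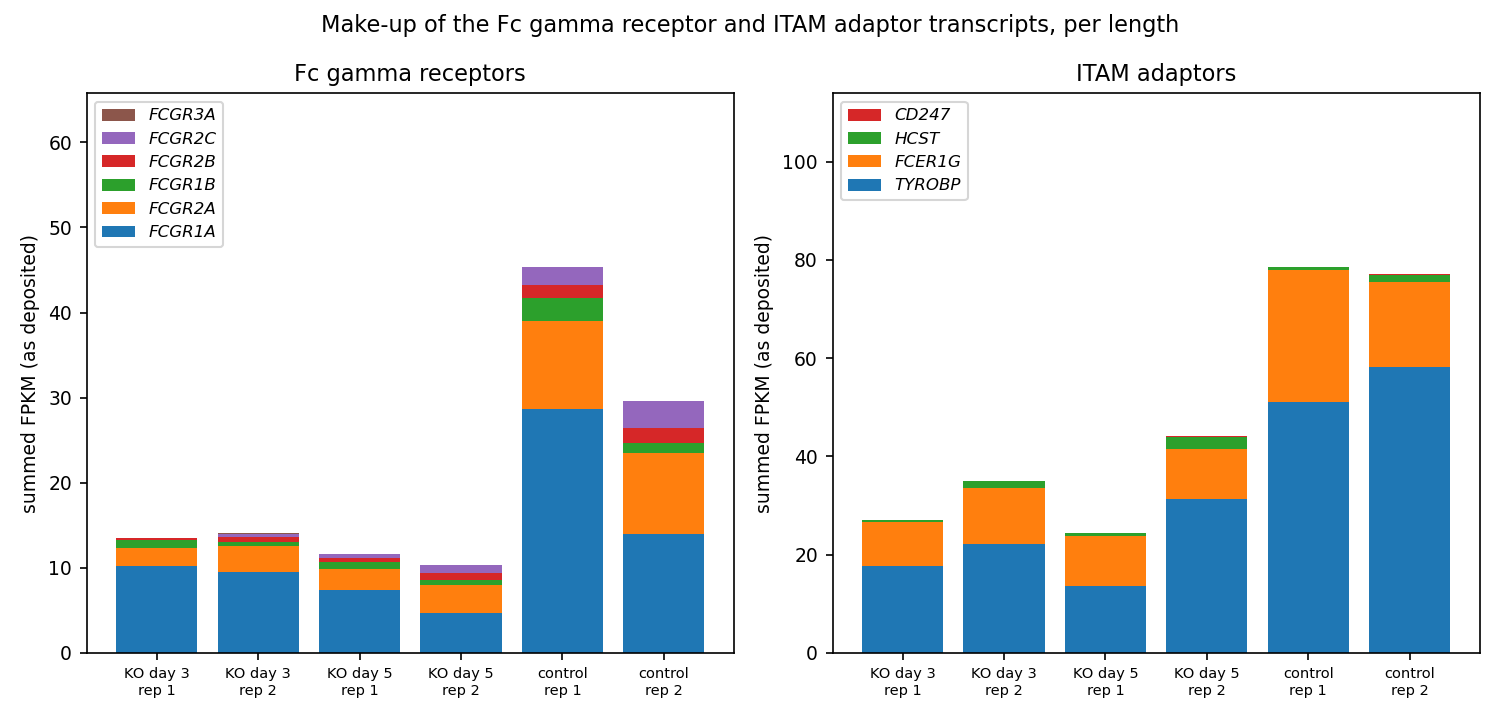
Summed deposited FPKM (vertical axes starting at 0) of the Fc gamma receptor transcripts, left, and of the ITAM adaptors, right, in each library, stacked by gene. Fc gamma receptor sums are 10.3 to 14 in the KO-labelled libraries and 29.6 to 45.3 in controls, and adaptor sums are 24.5 to 44.1 in the KO-labelled libraries and 77.0 to 78.5 in controls, with TYROBP as the largest block of the adaptors in each library.

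The wider pathway was described from 6 lists of genes grouped by role. The lists too were chosen with earlier results of these data known, so their counts and medians test no excess over all genes. Falls and rises of single genes are on the log2 scale, and where a gene has a pair of values, the first is day 3 and the second day 5 against control. Of 10 tested other Fc receptors, 3 fell and 0 rose at day 3, and 2 fell and 0 rose at day 5, with median log2 fold changes of -1.11 and -0.58. The same test called 5.99% of all tested genes lower and 5.72% higher at day 3, and 7.05% lower and 7.44% higher at day 5, which is the background of each list count below. The medians over all tested genes were -0.000118 at day 3 and 0.01 at day 5. Of 12 tested ITAM-coupled receptors and other adaptors, 3 fell and 0 rose at day 3 and 4 fell and 0 rose at day 5, with medians of -1.07 and -0.84. A gene can pass the filter on low counts through a single group, which then largely sets its direction. CLEC7A averaged 0.216 CPM at day 3, 0.0819 at day 5 and 2.43 in controls, and TREM2 0.246, 0.273 and 2.58 CPM. SIGLEC1 went the other way, at means of 5.72, 7.02 and 0.272 CPM. CYBB, in the scaffold list, averaged 0.533, 0.192 and 2.46 CPM. Such genes weigh on the counts and medians of the lists. LILRA1 fell by 1.89 (SE 0.25, adjusted p = 0.00529 by edgeR) and 1.94 (SE 0.26, adjusted p = 0.0042 by edgeR), and SIRPB1, a receptor that signals through TYROBP, by 1.60 (SE 0.23, adjusted p = 0.00714 by edgeR) and 1.71 (SE 0.23, adjusted p = 0.00476 by edgeR). LILRA2, a leukocyte immunoglobulin-like receptor that signals through FCER1G, fell by 1.0 (SE 0.16, adjusted p = 0.0105 by edgeR) and 1.16 (SE 0.17, adjusted p = 0.0052 by edgeR). Without KO day 3 replicate 2 the day 3 adjusted p was 0.0518 for SIRPB1 and 0.0977 for LILRA2.

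Of 14 tested ITIM receptors, which oppose ITAM signals, 4 fell and 0 rose at day 3 and 5 fell and 0 rose at day 5, with medians of -0.68 and -0.58. PECAM1, an adhesion receptor, stood at 41.7 and 44.5 CPM at day 3, 40.7 and 43.3 CPM at day 5, and 217 and 134 CPM in controls. It fell by 2.03 at day 3 (SE 0.22, adjusted p = 0.00315 by edgeR) and fell by 2.06 at day 5 (SE 0.22, adjusted p = 0.00231 by edgeR). CLEC12A, a myeloid lectin receptor that marks leukaemic cells, fell by 2.93 (SE 0.50, adjusted p = 0.0126 by edgeR) and 2.98 (SE 0.51, adjusted p = 0.01 by edgeR), and MILR1, a receptor of mast cells, by 1.59 (SE 0.24, adjusted p = 0.00761 by edgeR) and 1.91 (SE 0.24, adjusted p = 0.00343 by edgeR). Without KO day 3 replicate 1 the day 3 adjusted p was 0.063 for CLEC12A and 0.0631 for MILR1, and without KO day 3 replicate 2 the day 3 value of CLEC12A was -3.65. Receptors of both signs, ITAM-coupled and ITIM-bearing, were thus among the genes that fell.

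Of 19 tested phosphatases, ubiquitin ligases and other brakes, 7 fell and 1 rose at day 3 and 4 fell and 2 rose at day 5, with medians of -0.42 and -0.29. PTPN12, a tyrosine phosphatase, fell by 1.16 at day 3 (SE 0.16, adjusted p = 0.00588 by edgeR), INPPL1, a lipid phosphatase, by 0.74 (SE 0.12, adjusted p = 0.00932 by edgeR), and CBL, a ubiquitin ligase, by 0.77 (SE 0.13, adjusted p = 0.0103 by edgeR). At day 5 PTPN12 had -0.29 (adjusted p = 0.255 by edgeR) and CBL had -0.40 (adjusted p = 0.071 by edgeR), neither past the threshold, and CBL passed with the replicate block (adjusted p = 0.0176 by edgeR). SLA, an adaptor that lowers receptor levels, fell by 0.91 at day 5 (SE 0.13, adjusted p = 0.00494 by edgeR). PAG1, which anchors the SRC inhibitor CSK at the membrane, rose by 1.30 at day 5 (SE 0.21, adjusted p = 0.0092 by edgeR), and PTPN11, the phosphatase SHP2 that promotes RAS signalling, rose by 0.59 (SE 0.12, adjusted p = 0.0191 by edgeR). SLA and PAG1 also passed at day 3, with values of -0.77 to -0.59 and 0.83 to 1.52 over the 16 alternatives. Each was called there in 13 of these, and leaving out either KO day 3 library ended both calls. INPPL1 also passed at day 5 (-0.52 to -0.42), but only 7 of the 16 alternatives called it there. PTPN11 did not pass at day 3 (0.18 to 0.39). PTPN6, the phosphatase SHP1 recruited by ITIMs, stood at 442 and 463 CPM at day 3, 357 and 428 CPM at day 5, and 390 and 483 CPM in controls, and was not called. INPP5D, the lipid phosphatase SHIP1, fell by 0.62 at day 3 (SE 0.15, adjusted p = 0.0358 by edgeR), and its value at day 5 was -0.51 (adjusted p = 0.0562 by edgeR), which passed with the replicate block (0.00506). Leaving out KO day 3 replicate 1 or 2 ended the day 3 calls of INPPL1 (adjusted p = 0.0632 by edgeR and 0.119), CBL (0.0685 and 0.103) and INPP5D (0.216 and 0.161), and the last also without control replicate 1 (0.0841). Without control replicate 2 INPP5D passed at day 5 (0.0368). The call of PTPN11 was lost without control replicate 2 (adjusted p = 0.0522 by edgeR) or any of the 4 KO-labelled libraries (0.0573 to 0.0939).

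Of 35 tested scaffolds and proximal effectors, 11 fell and 1 rose at day 3 and 11 fell and 2 rose at day 5, with medians of -0.48 and -0.35. PIK3AP1, an adaptor for phosphoinositide 3-kinase, fell by 1.23 (SE 0.13, adjusted p = 0.00238 by edgeR) and 1.18 (SE 0.13, adjusted p = 0.00213 by edgeR). PRKCD, a protein kinase C, fell by 0.93 (SE 0.12, adjusted p = 0.00451 by edgeR) and 0.90 (SE 0.12, adjusted p = 0.00426 by edgeR). FYB1, an adaptor of integrin signalling, fell by 1.41 at day 3 (SE 0.18, adjusted p = 0.00463 by edgeR), and RASGRP2, an activator of RAP1, by 1.22 at day 5 (SE 0.17, adjusted p = 0.00476 by edgeR). FYB1 also passed at day 5 and RASGRP2 at day 3, with values of -1.03 to -0.64 and -1.18 to -0.80 over the 16 alternatives. Each was called there in 13 of these. Leaving out either KO day 5 library ended the FYB1 call, and leaving out either KO day 3 library ended that of RASGRP2. PLCG2, the phospholipase C gamma of myeloid and B cells, stood at 164 and 166 CPM at day 3, 181 and 188 CPM at day 5, and 180 and 159 CPM in controls, and was not called. For PRKCD the day 3 adjusted p was 0.0521 and 0.0528 without KO day 3 replicate 1 or 2. Of 6 tested SRC, SYK and TEC family kinases other than the 8 genes, 2 fell and 0 rose at each day, namely SRC and TEC.

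The replicate block called 14.2% of all tested genes lower and 13.6% higher at day 3, and 14.5% lower and 15.8% higher at day 5. In that fit, at day 3 the other Fc receptors had 5 lower and 1 higher, the ITAM-coupled list 5 lower and 0 higher, the ITIM list 7 lower and 1 higher, the brakes 10 lower and 1 higher, the other kinases 4 lower and 0 higher, and the scaffolds 16 lower and 3 higher. At day 5 the other Fc receptors had 5 lower and 1 higher, the ITAM-coupled list 5 lower and 0 higher, the ITIM list 5 lower and 0 higher as without the block, the brakes 8 lower and 3 higher, the other kinases 3 lower and 0 higher, and the scaffolds 16 lower and 4 higher. When 1 library was left out, the counts of calls at day 3 ranged from 0 to 3 for the other Fc receptors, 1 to 4 for the ITAM-coupled list, 1 to 4 for the ITIM list, 1 to 9 for the brakes, 1 to 3 for the other kinases and 2 to 12 for the scaffolds. The lowest counts at day 3 came without KO day 3 replicate 1, except that the ITAM-coupled list had its lowest without KO day 3 replicate 2; for the brakes both gave 1, and for the other kinases so did leaving out either control. At day 5 the ranges were 0 to 3, 3 to 4, 3 to 5, 2 to 7, 0 to 2 and 3 to 11 in the same order of lists, with the lowest without KO day 5 replicate 1, or without replicate 2 for the brakes; the ITAM-coupled list had 3 without either control too.

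**Figure D4:**
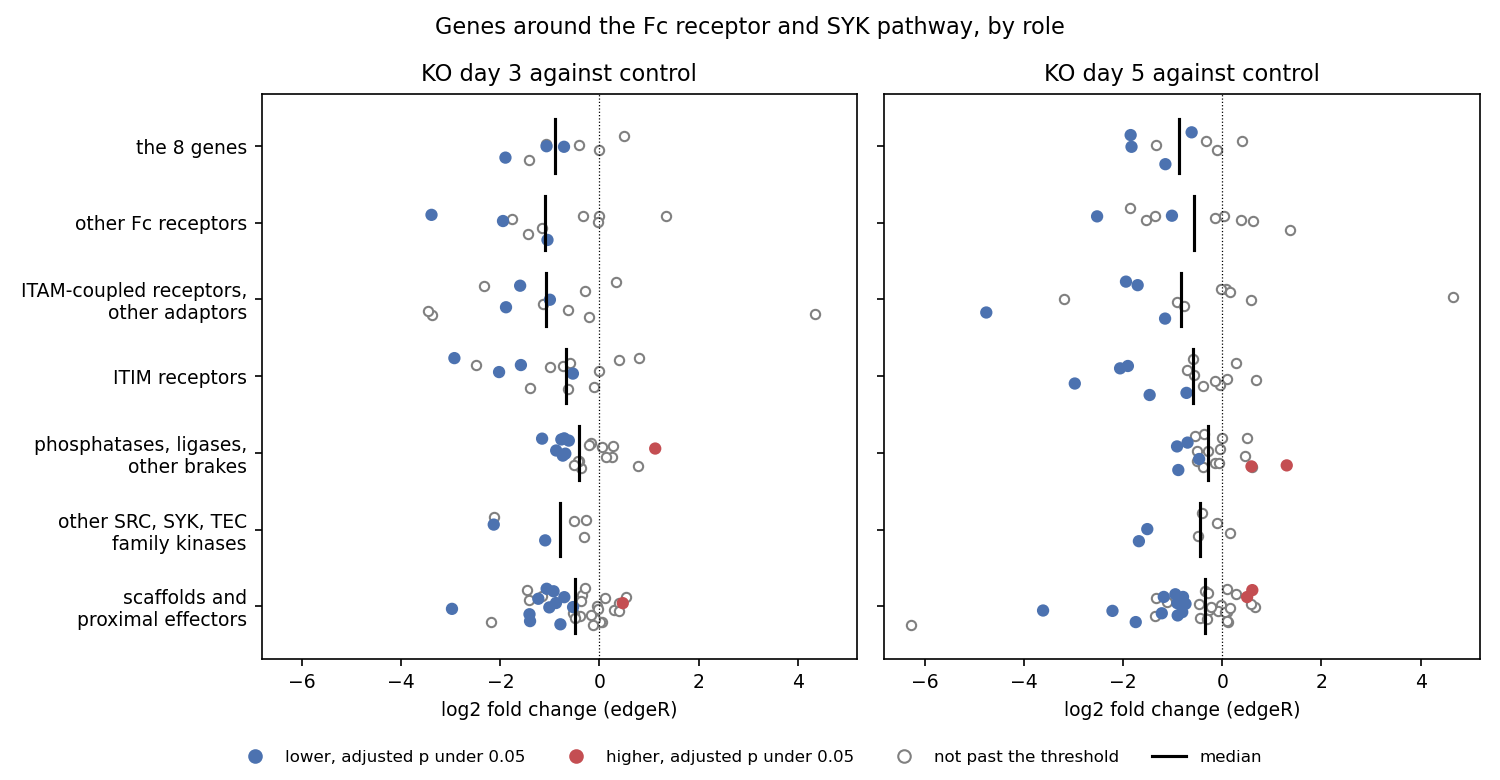
Log2 fold changes against control (edgeR) of the 8 genes and of the 6 lists around them at KO day 3, left, and KO day 5, right, with a vertical bar at each list's median. Blue points passed the threshold as lower and red ones as higher: the medians lie between -1.11 and -0.29, and points above 0 past the threshold are found among the brakes and the scaffolds.

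The profiles of the 8 genes over the 6 libraries were compared by the root mean square difference of log2 CPM, each gene centred on its mean, as a description with no test. LYN and BTK were the nearest pair at 0.19, next came SYK and LYN at 0.21 and FCER1G and SYK at 0.28. FCGR1A and FGR were farthest apart at 1.30. The distance was not scaled to how much a gene varied, so genes that varied little lay near each other. The root mean square spread around the gene's own mean was 0.20 for LYN and 0.12 for BTK, against 0.34 for SYK and 0.91 for FCGR2A. The distance between LYN and BTK was thus about the spread of LYN itself and does not show a shared profile. LYN lay below both controls in all KO-labelled libraries, while BTK overlapped them. FCGR2A lay nearer to TYROBP at 0.32 than to FCGR1A at 0.62. Among 8396 other protein-coding genes with a mean of at least 5 CPM, the nearest to FCGR2A were NAV1 at 0.10, N4BP2L1 at 0.11 and MS4A3 at 0.16. MS4A3, a gene of granulocyte and monocyte progenitors, averaged 40.3 ± 12 CPM at day 3, 35.7 ± 3.86 CPM at day 5 and 159 ± 12 CPM in controls (SD, n = 2). The nearest to FCGR1A were TICRR at 0.19, CST3 at 0.23 and MMD at 0.24, and the nearest to FCER1G were RUNX1 at 0.14, DIP2B at 0.14 and ARHGEF39 at 0.15. RUNX1, a haematopoietic transcription factor, averaged 256 ± 5.2 CPM at day 3, 265 ± 8.51 CPM at day 5 and 508 ± 104 CPM in controls (SD, n = 2). The nearest to SYK were AGO2 at 0.04, MGST3 at 0.05 and RASSF5 at 0.06.

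The spread between replicates differed among the 8 genes. The log2 difference of replicate 2 from replicate 1 was 1.43 at day 3, 2.0 at day 5 and 0.73 in controls for FGR, and 0.36, 1.16 and 0.21 for TYROBP. For FCGR1A it was -0.06, -0.68 and -1.01, and for SYK -0.19, -0.19 and -0.33. For BTK it stayed between 0.17 and 0.27 in all groups. Replicate 2 was thus the higher in each group for FGR, TYROBP and BTK, and the lower in each group for FCGR1A and SYK.

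**Figure D5:**
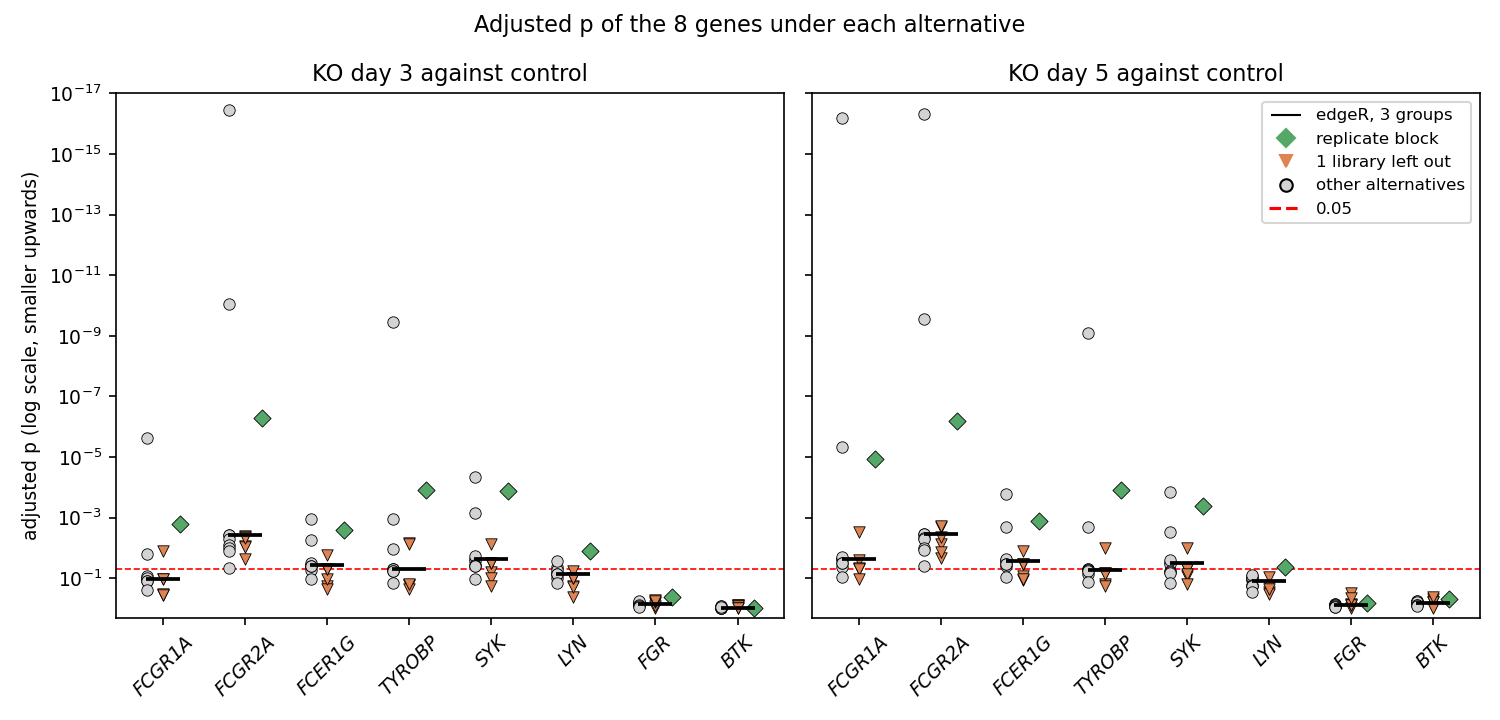
Adjusted p of the 8 genes (log scale, smaller values upwards) at KO day 3, left, and KO day 5, right, for the edgeR test of the 3 groups (black bar), the replicate block (green), each library left out (orange) and the other alternatives (grey). All points of FCGR2A lie above the dashed line at 0.05, and all points of FGR and BTK lie below it.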

How the data were processed

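Poly-A RNA of 6 MOLM-13 libraries was described, 2 in each of 3 groups, grouped by the labels' genotype and treatment. The authors deposited raw counts per gene beside FPKM values in 1 table, per the file headers. The submitters' processing notes name HISAT2, HTSeq 0.11.2, DESeq2 1.26.0 and GRCh38, with no role or order. How the authors scaled FPKM is not given in the sources used here. Each of the 24878 gene IDs, with its name, matched GENCODE release 29.

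Genes with at least 10 counts by edgeR's filterByExpr (minimum total 15) were kept, which left 14601. TMM-scaled counts were fitted over the 3 groups with edgeR 4.0.16 (quasi-likelihood test, R 4.3.3), with Benjamini-Hochberg adjustment over all genes tested, and 3 residual degrees of freedom beside a median prior of 5.12. A count of 3 equals 0.142 to 0.194 CPM, which covers counting error only. The chi-square per degree of freedom between libraries of a group was 17.4 at day 3, 23.3 at day 5 and 37.7 in controls, so no pair of libraries agreed within sampling noise. Alternatives were DESeq2 1.42.0, limma 3.58.1 on log2(FPKM + 1) or log2(FPKM + 0.1), other scaling factors and filters, only the 4 libraries compared, each library left out, and the replicate number as a block. The replicate numbers of the labels pair the libraries: replicate 1 minus replicate 2 correlated across 10190 genes at 0.523 for day 3 and control, 0.446 for day 5 and control, and 0.635 for day 5 and day 3.

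Named were the 8 genes, a fixed list of relatives (1 of them is not reported here), up to 3 genes with the smallest adjusted p per pathway list and day, and the 3 nearest profiles of each of the 8 genes past the threshold. The 8 genes and the lists were chosen with earlier results of these data known. Exon stretches of 100 bases were compared between genes, and 300-base RefSeq windows were searched for motifs. The scripts were tested on simulated data.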

Additional observations from a re-analysis of the deposited data

How the results depend on the processing

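With 2 libraries a group, counts of calls moved with the processing. For all genes, day 3 against control gave 1710 calls, and 2925 with no filter, 2638 with DESeq2, 4064 with the replicate block, 254 with limma on unfiltered FPKM and 282 to 1906 with 1 library left out. Day 5 against control gave 2117 calls, and 3234 with no filter, 1315 with only the 4 libraries compared, 4418 with the replicate block, 605 with limma on unfiltered FPKM and 723 to 1874 with 1 library left out. Day 5 against day 3 gave 4 calls, and 599 with no filter, 435 with DESeq2, 1117 with the replicate block, 1 with limma at a pseudocount of 1, 0 at 0.1, 0 on unfiltered FPKM, and 1 to 15 with 1 library left out. Of the 8 genes, 3 were called at day 3, and 6 with no filter, 6 with DESeq2, 6 with the replicate block, 1 with limma on unfiltered FPKM and 1 to 4 with 1 library left out. At day 5, 4 were called, and 1 with limma on unfiltered FPKM and 1 to 4 with 1 library left out. At day 5 TYROBP was called as well with no filter and with DESeq2, and TYROBP and LYN with the replicate block, which made 6 of the 8 genes in that fit. Between the days 0 were called, and 1 with no filter and 1 with the replicate block. Beyond the calls given above, the replicate block changed no other call of the 8 genes. The cause of these moves was not tested.

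Signs turned only for values that were not called. With 1 library left out, the log2 fold change at day 3 ranged from -0.11 to 0.11 for BTK, -0.38 to 1.04 for FGR, -0.0917 to 0.225 for PTPN6, -0.120 to 0.0491 for PLCG2 and -1.22 to 0.75 for HCST, and BTK was 0.0017 with upper-quartile factors. At day 5 it ranged from -0.26 to 0.000843 for BTK, -0.92 to 1.07 for FGR, -0.65 to 1.49 for HCST, -0.16 to 0.42 for YES1 and -0.270 to 0.0179 for FYN. For day 5 against day 3 it ranged from -0.23 to 0.32 for FCGR2A, -0.297 to 0.0783 for FCER1G, -0.61 to 0.54 for TYROBP, -0.0423 to 0.182 for SYK, -0.0487 to 0.162 for LYN, -1.41 to 0.76 for FGR and -0.248 to 0.0119 for BTK. FCER1G was 0.0061 with limma at a pseudocount of 1, filtered or not, and 0.0075 at 0.1.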
